A study of Homo sapiens with 2 samples.

Results

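The 1263 LDB1 peaks described here are those whose midpoint lies in the first 7 Mb of chromosome 7 (hg38). They were taken from 53742 deposited peaks, of which 52765 lie on chromosomes 1 to 22 and X and 4341 on chromosome 7. They come from 1 CUT&Tag library made with an antibody against LDB1. The cells were NB4, an established line from a human acute promyelocytic leukaemia that carries the PML::RARA fusion, and were not treated. In CUT&Tag an antibody guides a transposase, which inserts adapters into the DNA around the bound protein. The other library of the study, made with IgG from the same untreated line, was not analysed here. The stretch was chosen by the density of peaks in this list, which was known to be high there. Its density, widths and spacing are therefore given as a description, with no test, and there was no replicate. The counts and shares of genes, start sites and non-coding genes with a peak depend on the same density and are likewise description.

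LDB1 is a nuclear adaptor that does not bind DNA by itself. It dimerises, and through LMO proteins it is held at DNA by GATA factors and by basic helix-loop-helix factors such as TAL1 and the E proteins, which read E-boxes. In blood cells these complexes bring enhancers and promoters together. Positions and widths were the values deposited for each peak, so a binding strength was not measured. Copy number and read depth along the chromosomes of these cells were not at hand. Their part in the density and width of peaks was not tested.

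The first 7 Mb held 180 peaks per Mb (exact 95% Poisson interval 171 to 191, counting error only). The rest of chromosome 7 held 20.2 per Mb (19.5 to 20.9), a ratio of 8.92, and chromosomes 1 to 22 and X without this window held 17.0. These 7 Mb are 4.40% of the chromosome as measured here and carried 29.1% of its peaks. Chromosomes 1 to 22 and X gave 422 consecutive full windows of 7 Mb. The shorter piece left at the end of a chromosome was not ranked, so the ranks and highest values leave such ends out. The window ranked first in peaks and 52nd in protein-coding genes, of which it held 79. The next window, the first 7 Mb of chromosome 19, had 812 peaks and 245 genes, and the median of the other windows was 71 peaks. Per gene the window had 16.0 peaks, while the other windows with 10 genes or more had a median of 2.19 and a highest value of 15.2.

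**Figure D1:**
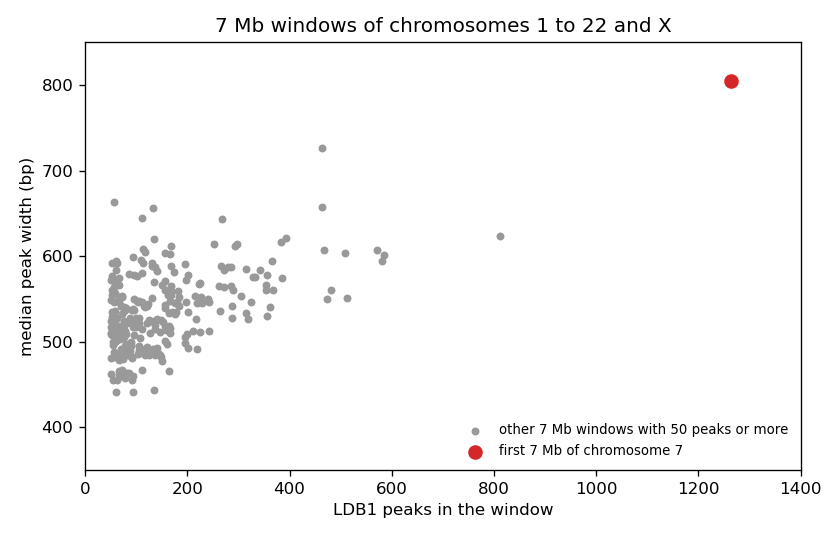
Each point is a full 7 Mb window of chromosomes 1 to 22 and X with 50 peaks or more. Shown are its number of LDB1 peaks (x axis) and their median width in bp (y axis), from 1 library. Shorter pieces at chromosome ends are left out. The first 7 Mb of chromosome 7, with 1263 peaks and a median of 805 bp, lies beyond the other windows on both axes, of which the highest values were 812 peaks and 727 bp.

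Sequences before 5 start sites that lie inside wide peaks are shown here, to give the DNA that such peaks cover. RefSeq (GRCh38.p14) gave 125 start-site windows in the first 7 Mb, each from 250 bases before to 50 bases after a transcription start, for 96 genes. A peak touched 74 of the 125, which is 59.2% (exact 95% interval 50.1 to 67.9%), against 20.2% of all 34961 start-site windows used. Neighbouring start sites can share a peak, and the interval does not allow for this. A higher share follows from the peak density for which the stretch was chosen. Of the 125, 53 lay wholly inside a peak. The 250 bases before the start are printed for 5 of those, chosen after their values were seen, in the 10 widest such peaks. PRKAR1B-AS1 (chr7:602595-602844, plus strand) lies in the widest of them, a 4405 bp peak. The internal start of GPR146, a G protein-coupled receptor gene (chr7:1055120-1055369, plus strand), lies in a 3959 bp peak. PDGFA, which encodes platelet-derived growth factor A (chr7:520701-520950, minus strand), lies in a 3452 bp peak. DAGLB, a diacylglycerol lipase gene (chr7:6447955-6448204, minus strand), lies in a 2815 bp peak. An internal start of ADAP1, the gene of an Arf GTPase-activating protein (chr7:920878-921127, minus strand), lies in a 2642 bp peak. Each is written 5′ to 3′ towards the start, and capitals mark a GATA motif (AGATAA or TGATAA) or the E-box CAGNTG, on either strand.
PRKAR1B-AS1: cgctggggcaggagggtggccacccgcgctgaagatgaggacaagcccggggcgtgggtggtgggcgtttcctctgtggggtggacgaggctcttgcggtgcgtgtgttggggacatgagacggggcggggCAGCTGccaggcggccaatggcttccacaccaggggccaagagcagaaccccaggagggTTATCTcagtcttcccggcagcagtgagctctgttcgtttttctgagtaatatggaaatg
GPR146: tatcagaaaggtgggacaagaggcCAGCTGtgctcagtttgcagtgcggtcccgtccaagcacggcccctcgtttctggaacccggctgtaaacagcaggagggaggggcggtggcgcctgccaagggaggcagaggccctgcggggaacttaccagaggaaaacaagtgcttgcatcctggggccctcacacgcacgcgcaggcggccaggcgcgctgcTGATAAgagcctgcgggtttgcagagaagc
PDGFA: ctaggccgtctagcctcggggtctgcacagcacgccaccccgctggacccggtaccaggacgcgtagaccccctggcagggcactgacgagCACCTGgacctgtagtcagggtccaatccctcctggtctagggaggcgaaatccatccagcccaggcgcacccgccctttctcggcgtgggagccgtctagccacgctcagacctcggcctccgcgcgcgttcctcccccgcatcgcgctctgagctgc
DAGLB: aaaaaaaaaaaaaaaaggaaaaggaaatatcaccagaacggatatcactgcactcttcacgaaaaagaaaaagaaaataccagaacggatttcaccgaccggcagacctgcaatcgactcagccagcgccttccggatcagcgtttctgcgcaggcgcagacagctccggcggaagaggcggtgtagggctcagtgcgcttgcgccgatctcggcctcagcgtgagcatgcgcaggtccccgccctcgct
ADAP1: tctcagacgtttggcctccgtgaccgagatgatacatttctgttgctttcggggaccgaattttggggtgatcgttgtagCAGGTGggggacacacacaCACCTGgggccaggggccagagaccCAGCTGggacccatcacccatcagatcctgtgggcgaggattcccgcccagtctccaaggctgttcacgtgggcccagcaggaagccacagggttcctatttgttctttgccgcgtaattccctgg

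The stretches of PRKAR1B-AS1 and GPR146 held 1 GATA motif and 1 E-box of this form each. A second start site of PRKAR1B-AS1 in the same peak (chr7:603148-603397), not printed, held 1 such E-box and no GATA motif. The stretch of PDGFA held 1 such E-box, that of ADAP1 held 3, and that of DAGLB held neither. The other start sites in these widest peaks were not printed. Of them, LOC107986759 held 2 such E-boxes and PRKAR1B-AS2 held 1, both without a GATA motif. LINC02983 held 1 GATA motif and no such E-box, and CYTH3 and AMZ1 held neither. Over the 300 base windows, CAGNTG on either strand was in 63.5% of the 74 touched start sites of the first 7 Mb, in 45.1% of the 51 not touched, and in 49.9% of all 34961. Of all 7050 start sites touched by a peak anywhere, 48.3% held it. The wider E-box CANNTG, which includes every CAGNTG, was in 79.7%, 58.8% and 68.7% of the first 3 of these sets and in 61.8% of the 7050. Over all start sites, both E-box forms were thus less frequent among touched ones than among all. In the same order, a GATA motif was in 6.76%, 7.84%, 16.3% and 7.69%, and the MAF and NFE2 core TGCTGAG in 8.11%, 5.88%, 6.70% and 6.54%. The median GC content was 65.5% for touched, 63.7% for untouched and 58.7% for all start sites, and 67.0% for the 7050. Motif shares move with base composition, and its part in these shares was not tested.

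Density changed in 4 steps. The chromosome was divided into stretches of even density over 50 kb bins, and within the first 10 Mb the steps fell at 0.2, 3.05, 3.95 and 6.95 Mb. The first 0.2 Mb held 10 peaks, 50 per Mb (24.0 to 92). From 0.2 to 3.05 Mb there were 798 peaks, 280.0 per Mb (261 to 300.1), the densest of 25 stretches of chromosome 7. From 3.05 to 3.95 Mb there were 11, or 12.2 per Mb (6.10 to 21.9), a step down of 22.9-fold. From 3.95 to 6.95 Mb there were 443, or 148 per Mb (134 to 162), a step up of 12.1-fold to the third densest stretch of the chromosome. Past 6.95 Mb the density fell 12.9-fold to 11.4 per Mb (9.99 to 13.0), and this stretch ran on to 27.1 Mb. The window thus held 2 dense stretches with a sparse one between them, and its 7 Mb limit lay 1 bin past the last step.

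**Figure D2:**
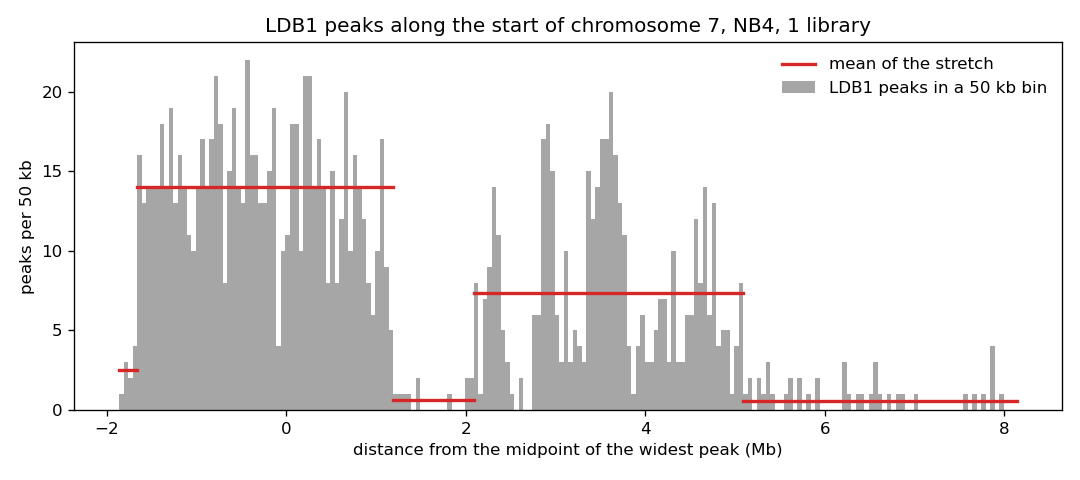
Number of LDB1 peaks in bins of 50 kb (bars) along the first 10 Mb of chromosome 7, against the distance of the bin from the midpoint of the widest peak in Mb, with the mean of each stretch of even density (red lines). A dense stretch of 280.0 peaks per Mb, a sparse one of 12.2 and a second dense one of 148 lie before a long stretch of 11.4 per Mb.

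The steps were then set beside the genes near them. The first lay in the start of FAM20C, the gene of a secretory pathway kinase (192571 to 260772), with 10 peaks in the 200 kb before it and 57 in the 200 kb after. At the step down at 3.05 Mb there were 41 peaks in the 200 kb before and 4 in the 200 kb after, and the gap across it was 42967 bp. The step up at 3.95 Mb lay inside SDK1, a cell adhesion gene (3301252 to 4269000), with 4 peaks before and 25 after. At 6.95 Mb the step lay at LOC112267992, with 18 peaks before and 5 after. The last 3 peaks inside the 7 Mb limit were 2322, 1281 and 1358 bp wide. The first 3 outside it were 588, 794 and 810 bp wide, and the gap across the limit was 35158 bp.

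In bins of 100 kb the window had a median of 20 peaks (range 0 to 38), where the rest of chromosome 7 had a median of 1 (0 to 28). Of its 70 bins, 36 held 20 peaks or more, as did 11 of 1523 in the rest of the chromosome. The second dense stretch was less even than the first. By Mb of the chromosome, the counts were 241, 300 and 262 in the first 3, 24 in the fourth, and 134, 176 and 126 in the fifth to the seventh. The next 3 Mb held 17, 15 and 8. The 38 peaks of the fullest bins were reached between 1000 and 1100 kb, over CHLSN, GPR146 and GPER1, and between 1400 and 1500 kb, over MICALL2 and INTS1. In the second stretch, 37 were reached between 5400 and 5500 kb, over TNRC18 and FBXL18. The bins from 4300 to 4600 kb, also in that stretch, held 4, 2 and 0, so it took in a sparse part.

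Peaks of the window were wider than those elsewhere. Their median width was 805 bp (quartiles 483 and 1360 bp, range 323 to 13369 bp), against 565 bp (415 and 814) in the rest of chromosome 7. The width was 1 kb or more for 478 of 1263 (37.8%), where 16.5% of all peaks on chromosomes 1 to 22 and X reach it. It was 3 kb or more for 75 (5.94%), against 0.769% of all peaks, so that 18.5% of the 406 peaks of this width lay here. Of the 100 widest peaks of the list 19 lay here, and of the 10 widest 2. The peaks covered 1.43 Mb, or 20.4% of the window, against 1.45% of the rest of the chromosome. Width went with density inside the window: the median was 861 bp in the first dense stretch, 715 bp in the second, 421 bp in the sparse stretch between them and 501 bp in the first 0.2 Mb. Past 6.95 Mb it was 507 bp. In the first dense stretch the peaks covered 33.6% of the sequence.

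Peaks also lay closer together. The median gap from a peak to the next was 1609 bp (quartiles 711 and 3820 bp), against 10230 bp (2599 and 46822) in the rest of the chromosome. A gap was 1 kb or less in 454 of 1262 cases (36.0%), against 12.8% in the rest of the chromosome. Gaps were at least 324 bp, so a broad region can be listed as several peaks. When peaks up to 1 kb apart were joined, 809 regions remained, 164 of them 3 kb or more, and the widest spanned 24362 bp inside MAD1L1 (1852063 to 1876424). The joined density was still 6.55 times that of the rest of the chromosome. The gap was 1280 bp at the median in the first dense stretch, 2364 bp in the second and 46143 bp in the sparse stretch between them.

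**Figure D3:**
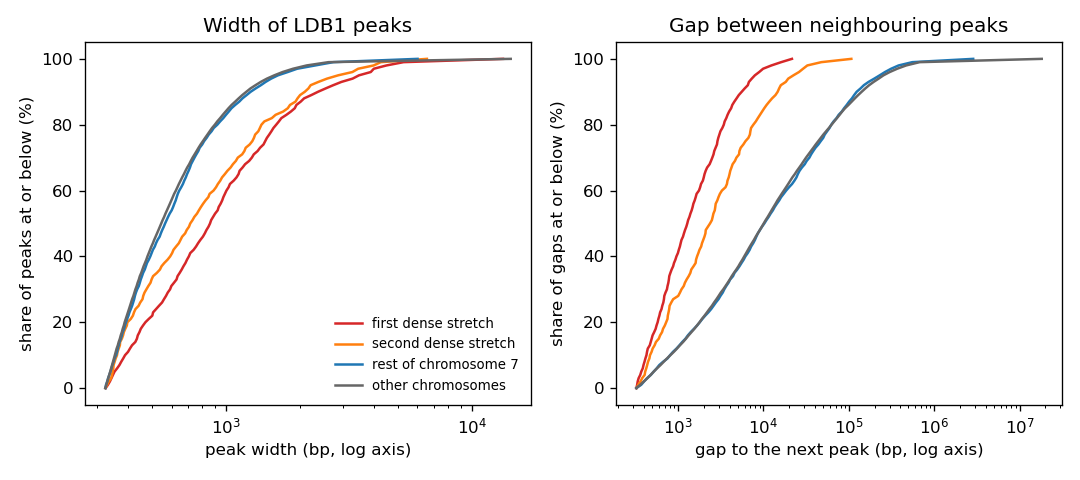
Cumulative share of peaks by width in bp (left, log axis) and of gaps between neighbouring peaks in bp (right, log axis) for the first dense stretch (red), the second (orange), the rest of chromosome 7 (blue) and the other chromosomes (grey). Medians of width are 861, 715 and 565 bp for the first 3 of these, and medians of the gap 1280, 2364 and 10230 bp.

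The 2 longest gaps lay in SDK1. The longest was 320 kb (3336770 to 3656849) and the second 202 kb (3657207 to 3858811), both inside the gene and parted by a single peak. A gap of 55.4 kb also lay inside SDK1. The third, of 107 kb (4497516 to 4604491), held the whole of LOC124901580. Those of 91.3 kb (3105478 to 3196810) and 75.7 kb (4314303 to 4389963) touched no protein-coding gene. Gaps over 50 kb numbered 9 and made up 1.03 Mb. Another of these lay in RNF216 (51.6 kb). A shorter gap, of 48.5 kb, lay at RSPH10B2 and CCZ1B. The last 2 genes have near-identical copies in the same window, RSPH10B and CCZ1, so peaks at all 4 are uncertain.

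Clusters took in most of the peaks. With peaks up to 10 kb apart joined, 1153 of 1263 (91.3%) lay in 37 clusters of at least 5 peaks, against 36.6% of the peaks of chromosomes 1 to 22 and X. The 5 largest held 657 peaks, 52.0% of the window, and 5 of the 6 clusters of 100 peaks or more in the whole list were these. The largest of the list had 160 peaks over 510 kb (1169811 to 1679618) and ran through UNCX, MICALL2, INTS1, MAFK, TMEM184A and PSMG3 to ELFN1. The next here had 135 over 434 kb (5203677 to 5638050), from WIPI2 through SLC29A4, TNRC18, FBXL18, ACTB and FSCN1 to RNF216. A cluster of 133 (368277 to 811010) took in PDGFA, PRKAR1B and DNAAF5. A cluster of 120 (1809717 to 2180122) touched MAD1L1 and no other protein-coding gene and began outside it, with 54.3% of its span covered by peaks and a median width of 1047 bp. The fifth, of 109 (826162 to 1152851), ran from SUN1 to ZFAND2A.

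The excess was smallest at gene ends. A peak midpoint lay within 1 kb of an end of a protein-coding gene for 80 of 1263 peaks, 6.33% (exact 95% interval 5.05 to 7.82%), where 14.9% of all peaks do. Bodies of such genes otherwise held 64.0% and sequence outside them 29.7%. Per Mb of such sequence, gene ends of the window held 278 peaks (220 to 346) against 108 on chromosomes 1 to 22 and X without the window, a ratio of 2.57. Gene bodies held 195 (182 to 209) against 20.5, a ratio of 9.52. Outside protein-coding genes the densities were 146 (131 to 161) and 10.8, and their ratio was 13.5. With genes of all biotypes counted, 22.6% of the window's peaks lay outside genes. In the first dense stretch gene ends, gene bodies and the sequence outside held 283 (203 to 384), 289 (265 to 315) and 261 (229 to 297) peaks per Mb, with intervals that overlap. In the second they were 288 (204 to 395), 166 (147 to 187) and 107 (89.6 to 127). Wide peaks can cover a gene end with a midpoint farther away: counted by any base, 9.34% of the peaks reached a zone within 1 kb of an end, against 17.6% of all peaks. Peaks in gene bodies had a median width of 854 bp, those at gene ends 739 bp and those outside 721 bp.

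**Figure D4:**
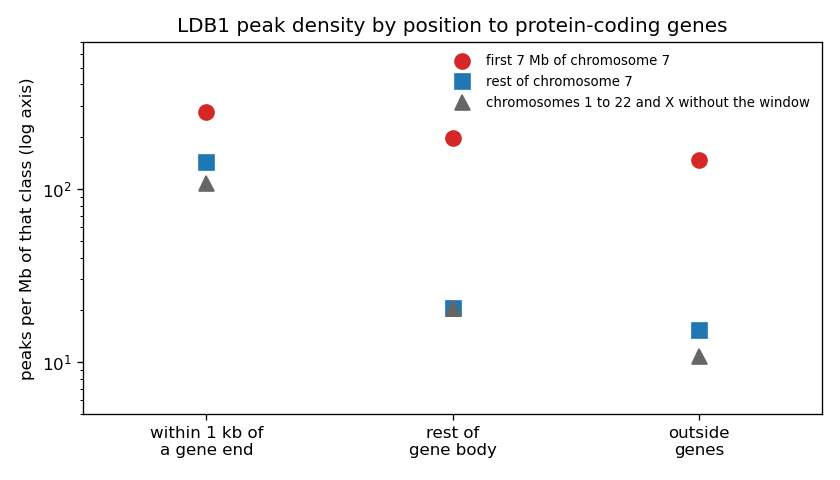
LDB1 peaks per Mb (log axis) within 1 kb of protein-coding gene ends, in the rest of their gene bodies and outside protein-coding genes. Points are for the first 7 Mb of chromosome 7 (red), the rest of the chromosome (blue) and chromosomes 1 to 22 and X without the window (grey). The red points fall from 278 to 146 across the classes, the grey ones from 108 to 10.8.

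All 79 protein-coding genes with a midpoint in it had a peak in the gene or within 10 kb, where 70.4% of the 19974 protein-coding genes do, and 74 (93.7%) had one in the gene body, where 57.6% of all do. A peak midpoint lay at an end of 64 (81.0%), where 37.6% of all genes have one. The median was 11 peaks in the gene or within 10 kb (range 1 to 136), against 1 over all protein-coding genes. Overlapping and neighbouring genes share peaks. By gene length, genes of 10 kb or less had a median of 8 peaks against 1 for those outside the window. Genes of 10 to 30 kb had 9 against 1, genes of 30 to 100 kb had 17 against 1, and genes over 100 kb had 37 against 2. Higher counts at every length follow from the density for which the stretch was chosen. In the first dense stretch 39 genes had a median of 14, and in the second 37 genes had a median of 8. For 52 genes RefSeq start sites gave the strand. Of these, 37 (71.2%) had a peak midpoint within 1 kb of the 5′ end and 21 (40.4%) within 1 kb of the 3′ end, where 31.9% and 10.5% of all 15812 such genes do. In these counts and those by role below, a peak counted at an end only by its midpoint. The wide peak over the 5′ end of PDGFA was thus not counted there.

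**Figure D5:**
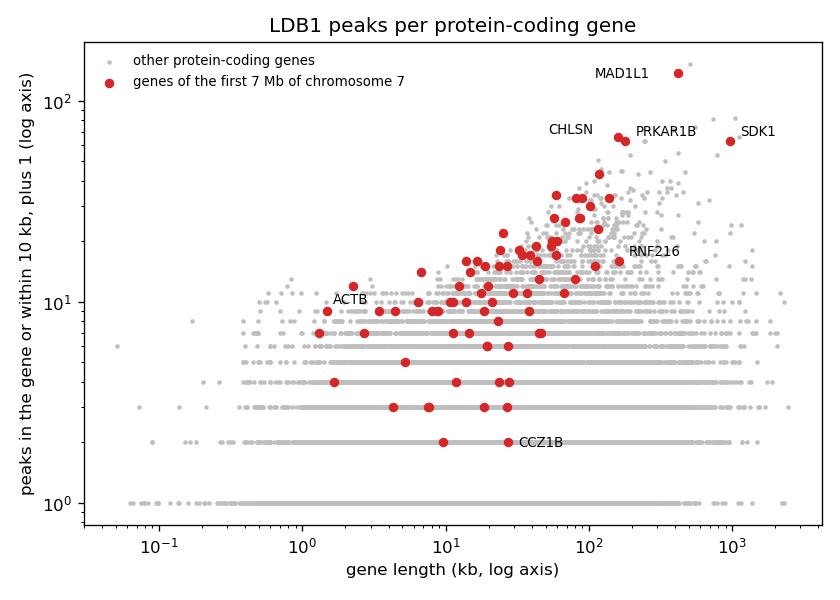
Peaks in the gene or within 10 kb, plus 1 (log axis), against gene length in kb (log axis), for the 79 protein-coding genes of the first 7 Mb of chromosome 7 (red) and the other protein-coding genes (grey). The red points run from CCZ1B with 1 peak to MAD1L1 with 136, and their median is 8 for genes of 10 kb or less and 37 for genes over 100 kb, against 1 and 2 for the grey points.

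MAD1L1 carried the most peaks of these genes and the widest. It encodes a spindle checkpoint protein that anchors MAD2 at kinetochores, and spans 417 kb (1815795 to 2232945, minus strand). There were 135 peaks touching the gene, which covered 51.2% of it, and by peaks in the gene or within 10 kb it ranked second of 19974 genes. Its widest peak was 13369 bp (1852063 to 1865431), the second widest of the list on chromosomes 1 to 22 and X. The next peak was 6927 bp wide (1865764 to 1872690). Of the window's 75 peaks of 3 kb or more, 20 had a midpoint in this gene. With the gene divided into 5 equal parts from 5′ to 3′, the parts held 27, 34, 24, 31 and 18 peak midpoints, with median widths of 821, 1010, 1058, 1111 and 1360 bp. Peaks were thus spread along the whole gene, and their median width was higher towards its 3′ end.

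SDK1 had the other pattern. It encodes an immunoglobulin-type adhesion protein and spans 968 kb on the plus strand. Of its 59 peak midpoints, 1 lay in each of the first 3 parts, 15 in the fourth and 41 in the last. Peaks covered 4.49% of the gene, and the widest was 2146 bp. PRKAR1B, which encodes a regulatory subunit of protein kinase A, had 57 peaks in 180 kb, and its 5 parts from 5′ to 3′ held 12, 11, 8, 12 and 13 midpoints. CHLSN had 59 in 160 kb, and its parts held 9, 14, 13, 11 and 11. Its count takes in the peaks of CYP2W1, GPR146 and GPER1, which lie within its span. RNF216, a ubiquitin ligase gene of 162 kb, had 12 peaks, and its parts held 1, 1, 0, 4 and 6.

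The other widest peaks lay mostly inside genes. A peak of 9153 bp lay in INTS1 (1476417 to 1485569), which encodes a subunit of the Integrator complex that processes small nuclear RNAs, and peaks covered 65.7% of this gene. A peak of 6556 bp (5527791 to 5534346) reached across an end of ACTB, the beta-actin gene, and covered 81.4% of it. ADAP1 had peaks of 6498 bp (906914 to 913411) and 5425 bp (896658 to 902082), the latter across an end. A peak of 6089 bp lay in ZNF316 (6650658 to 6656746), a zinc finger gene, and 1 of 5683 bp in RADIL (4833394 to 4839076), which encodes an effector of Rap. MAD1L1 held 2 more of the 10 widest, of 5710 and 5428 bp. The next, of 5409 bp (1646583 to 1651991), lay outside genes, 16.8 kb from ELFN1. A peak of 5366 bp lay across an end of FSCN1, the gene of the actin-bundling protein fascin. A peak of 5263 bp covered the whole of GRIFIN, a gene of the galectin family.

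The genes were then read by role, from lists made with earlier results of these data known. The counts of each list stand beside those of all 79 genes of the window, of which 93.7% had a peak in the gene body and 81.0% at an end, with a median of 11 peaks in the gene or within 10 kb. With lists of 3 to 10 genes, counts near these shares say nothing particular of a list. A peak in the gene body was found for 10 of 10 signalling genes and at an end for 9, near the shares of the window, and their median was 14.5 peaks. Among them, PRKAR1B had 62 and GNA12, the gene of a G protein alpha subunit, had 22. LFNG, which encodes a glycosyltransferase that modifies Notch, had 15, and peaks covered 62.9% of it. GPER1, the gene of a membrane oestrogen receptor, had 13. CYTH3, which encodes an Arf exchange factor and lies in the second dense stretch, had 14, and peaks covered 10.4% of it.

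Genes of the cytoskeleton, nuclear envelope and spindle had a median of 18.5 peaks over 6 genes. Of these, 6 had a peak in the gene and 5 at an end, near the 93.7% and 81.0% of the window. RADIL had 25, MICALL2 had 21 and SUN1, which encodes a protein of the inner nuclear membrane, had 16. ACTB had 8 and FSCN1 had 9, each with a wide peak across an end. No peak midpoint lay within 1 kb of an end of SUN1.

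Transcription factor and chromatin genes had a median of 8.5 peaks, against 11 for the window. Of 8 genes, 8 had a peak in the gene and at an end, where 93.7% and 81.0% of the window's genes did. TNRC18 had 42 peaks and FOXK1, a forkhead factor gene, had 32. MAFK encodes a small MAF protein that pairs with the blood factor NFE2. It had 11, the widest of 1947 bp, and peaks covered 46.1% of the gene. UNCX, a homeobox gene, had 8. ZNF12 had 2 and RBAK had 3, the fewest of this list.

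Of 7 genes of RNA processing and translation, 6 had a peak in the gene and 5 at an end, where 93.7% and 81.0% of the window's genes did, with a median of 8. INTS1 had 16 and EIF3B, an initiation factor gene, had 14. INTS15, another Integrator subunit gene, had 8. MRM2, a mitochondrial RNA methyltransferase gene, had no peak in its body of 8.01 kb and 8 within 10 kb of it. The 3 genes of DNA repair and the nucleotide pool had 8 (NUDT1), 8 (PMS2) and 10 (BRAT1). PMS2, a mismatch repair gene, has near-identical partial copies in the genome, so its count is uncertain.

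Of 10 genes of membrane traffic and transport, 10 had a peak in the gene and 9 at an end, near the 93.7% and 81.0% of the window, with a median of 15. SNX8, a sorting nexin gene, had 29 peaks, and TTYH3 and SLC29A4, which encode a chloride channel family protein and a monoamine transporter, had 17 each. DAGLB had 16, WIPI2, an autophagy gene, had 15, and ZDHHC4 had 3. The 4 neuronal and synaptic genes had 62 (SDK1), 32 (ELFN1), 18 (GRID2IP) and 10 (MMD2). Peaks covered 40.9% of ELFN1, 24.9% of GRID2IP and 4.66% of MMD2. Each of these 7 lists held a gene with 10 peaks or more.

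Per kb of gene body, counting genes of at least 5 kb, the highest were GPER1 at 0.598, TMEM184A at 0.573, MICALL2 at 0.518, LFNG at 0.481 and CYP2W1 at 0.464 peaks per kb. All 5 lie in the first dense stretch. The 5 genes without a peak in the body were LOC124901807, MRM2, LOC124901580, OCM and LOC112267992. OCM, a calcium-binding protein gene of 26.6 kb, had 2 peaks within 10 kb, neither wider than 388 bp. The 6 genes listed for near-identical copies had a median of 4.5 peaks, and CCZ1B had 1.

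Non-coding genes also carried peaks. Of 73 long non-coding RNA genes with a midpoint in the window, 60 were touched by a peak, with up to 10 in 1 gene, where 26.6% of all such genes are. A peak touched 10 of 33 genes annotated as pseudogenes, where 6.96% of all are. Of 7 microRNA hairpins, 5 were touched by a peak, where 9.82% of the 1558 hairpins compared are. The 5 touched lie in bodies of protein-coding genes of the window, and a mature sequence of each is shown to identify it. Capitals mark the seed, bases 2 to 8.
hsa-miR-4655-5p: cACCGGGGauggcagagggucg
hsa-miR-6836-5p: cGCAGGGCccuggcgcaggcau
hsa-miR-4648: uGUGGGACugcaaaugggag
hsa-miR-4656: uGGGCUGAgggcaggaggccugu
hsa-miR-589-5p: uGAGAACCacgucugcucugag
The hairpin of MIR4655 (chr7:1844180-1844253) lies in MAD1L1 at a 2384 bp peak, and that of MIR6836 (chr7:2257515-2257577) in SNX8 under a 3879 bp peak. MIR4648 (chr7:2527074-2527145) lies in LFNG under a 2810 bp peak, MIR4656 (chr7:4788565-4788639) in AP5Z1 under a 4046 bp peak, and MIR589 (chr7:5495819-5495917) in FBXL18 under a 1929 bp peak. The 5 seeds differ from each other. MIR339 lay 234 bp from a peak and MIR6874, in a gap inside RNF216, lay 24207 bp from 1.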

How the data were processed

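Sites of LDB1 were mapped by CUT&Tag in NB4 cells, with 1 LDB1 and 1 IgG library. The deposited table gives, per the file headers, the chromosome, start, end and length in bp of each LDB1 peak, with no other value per peak. Per the submitters' processing notes, the build was hg38 and the tools named were Bowtie2 2.4.1 and MACS2 2.0.10. Their parameters and threshold, and any use of the IgG library as control, were not given in the sources used here, and with no read counts in the table the depth is unknown. Peak number and width both rise with the reads at a locus and with a looser threshold. Starts count from 1, since length equalled end minus start plus 1 in all 53742 rows.

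Genes and start sites came from RefSeq tables of GRCh38.p14. A chromosome ran to its last peak or gene end (159235323 on chromosome 7). Density steps were found by the least-cost division of chromosome 7 into stretches of constant Poisson rate over 50 kb bins. The cost was 3 times the natural log of the 3185 bins per step. The division was tried on simulated Poisson counts, even within each stretch, with steps and rates set by hand. It was not tried on counts as uneven as those of the second dense stretch. Intervals are exact Poisson or Clopper-Pearson and cover counting error within this list only. Python 3.11.15, numpy 2.4.6, pandas 2.3.3 and scipy 1.17.1 were used. The members and gene lists were chosen with earlier results of these data known. Any protein-coding gene of the window could be named. Values were given for genes of the 10 widest peaks, the 10 genes with the most peaks, the 5 with the most peaks per kb, the 5 largest clusters, the 5 longest gaps, the steps and the lists by role. Other genes, the 5 start sites printed and the use of the last step as the end of the dense stretch were chosen after their values were seen. Alternatives changed the peaks used, the window, the distances and the bins. Some genes of the window are not reported here by name.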

Additional observations from a re-analysis of the deposited data

How the results depend on the processing

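Of 37 alternatives, 17 left a value inside its counting interval (or a step within 0.1 Mb) and 20 moved it. The density of 180 peaks per Mb became 125 with the widest 50% of peaks, 89.3 with the widest 25%, 116 with peaks up to 1 kb apart joined, 192 in the first 5 Mb and 160 in the first 8 Mb. Its ratio to the rest of chromosome 7 ranged from 6.55 to 17.7. The median width of 805 bp became 1030 bp with joined peaks. The median gap of 1609 bp became 2103 bp (widest 50%), 2798 bp (widest 25%) and 2941 bp (joined). The share at gene ends of 6.33% became 3.96% at 500 bp, 13.9% at 2500 bp, 12.4% with all biotypes and 9.34% by any base, and was below that of all peaks at each setting. The share in genes of 70.3% (63.7% of all peaks) became 77.4% with all biotypes and 74.1% with the widest 25%. Over all peaks the share was 76.3% with all biotypes and 69.4% with the widest 25%. With all biotypes the window was thus close to all peaks. The share of genes with a peak became 93.7% by gene body and 92.4% with the widest 25%. Over all protein-coding genes these were 57.6% and 35.3%. The share in clusters of 91.3% became 78.3% at 5 kb, 97.0% at 20 kb and 86.6% with the widest 50%. Over all peaks it was 20.5% at 5 kb, 53.0% at 20 kb and 26.6% with the widest 50%. The last step lay at 6.95 or 7 Mb throughout; the step at 0.2 Mb was absent with a doubled step cost and with joined peaks. No paired analysis was possible because each antibody had 1 library and no result comes from a test.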
